A study of Mus musculus with 18 samples.

Results

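The receptors and ligands that govern the endothelium of the heart were measured in left ventricular RNA of mice with and without cardiac CaMKII after ischemia and reperfusion (I/R). They are 10 genes chosen by name for their role: the vascular endothelial growth factor (VEGF) receptors Kdr and Flt1, the TIE receptors Tek and Tie1, the junction genes Cdh5 and Pecam1, the TIE2 ligands Angpt1 and Angpt2, the ligand gene Apln and its receptor gene Aplnr. Each matched 1 of the 24479 features of the array, where a feature stands for one gene. The array table held 18 arrays in 6 groups of 3. DKO ventricles came from mice whose floxed Camk2d and Camk2g were recombined by Cre under the cardiomyocyte-specific α-MHC promoter, taken 1 day or 5 days into reperfusion or following sham surgery. FFFF ventricles came from mice with the same floxed alleles and no Cre, which the labels call wild-type, taken at the same 3 stages. All mice were of a mixed 129/Sv and C57BL/6 background. I/R meant 60 min of ligation of the left anterior descending artery followed by reperfusion. The labels place I/R samples in the ischemic area and sham samples in left ventricular myocardium, so injury and sampled region cannot be told apart. DKO mice alone carry Cre, so Cre and the deletion cannot be told apart either. The methods give the age of DKO mice at surgery only as a range over the whole study, and the labels give none. The sources used here give no day of sham harvest, and the labels number the arrays and name no animal, so p-values measure the spread between these arrays.

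The deleted genes were read first. Camk2d and Camk2g lay lower on every DKO array than on every FFFF array after sham surgery and at 5 days. On DKO I/R 1 day replicate 1, as labelled, the log2 values were 9.71 for Camk2d and 7.10 for Camk2g, against 9.59 to 9.83 and 7.00 to 7.37 on the FFFF arrays of that day, which goes against its label. Calls of the 10 genes that rest on DKO ventricles at 1 day were therefore also tested without it. Differences that were not called are given without it for some genes only. The counts and named genes of the gene lists, and the correlations, are given only with it. By Xist and Y-linked transcripts, each 5-day group held 2 male and 1 female arrays, with replicate 3 the female, and all arrays of the other groups were female. Fitting sex therefore leaves a difference between 1 day and sham as it is and changes only its estimated spread. The mean log2 level of 11 leukocyte genes lay between 7.82 and 11.17 on I/R arrays, against 6.63 to 7.17 on sham arrays. That of 13 cardiomyocyte genes lay between 12.07 and 12.87 on I/R arrays, against 12.92 to 13.01 on sham arrays. In bulk tissue, fewer endothelial cells and less RNA per endothelial cell cannot be told apart, and the part of these shifts in the results below was not tested.

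VEGF acts on endothelial cells through VEGFR2, encoded by Kdr, which carries the main proliferative and survival signal, while VEGFR1, encoded by Flt1, binds VEGF tightly and limits that signal. TIE2, encoded by Tek, keeps vessels quiescent when bound by angiopoietin-1 from perivascular cells and cardiomyocytes. Angiopoietin-2, stored and released by activated endothelium, opposes it in many settings, and TIE1 is a partner receptor that modulates TIE2. Apelin signals through its receptor APJ, encoded by Aplnr, and is known in sprouting vessels and in the injured heart.

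**Figure D1:**
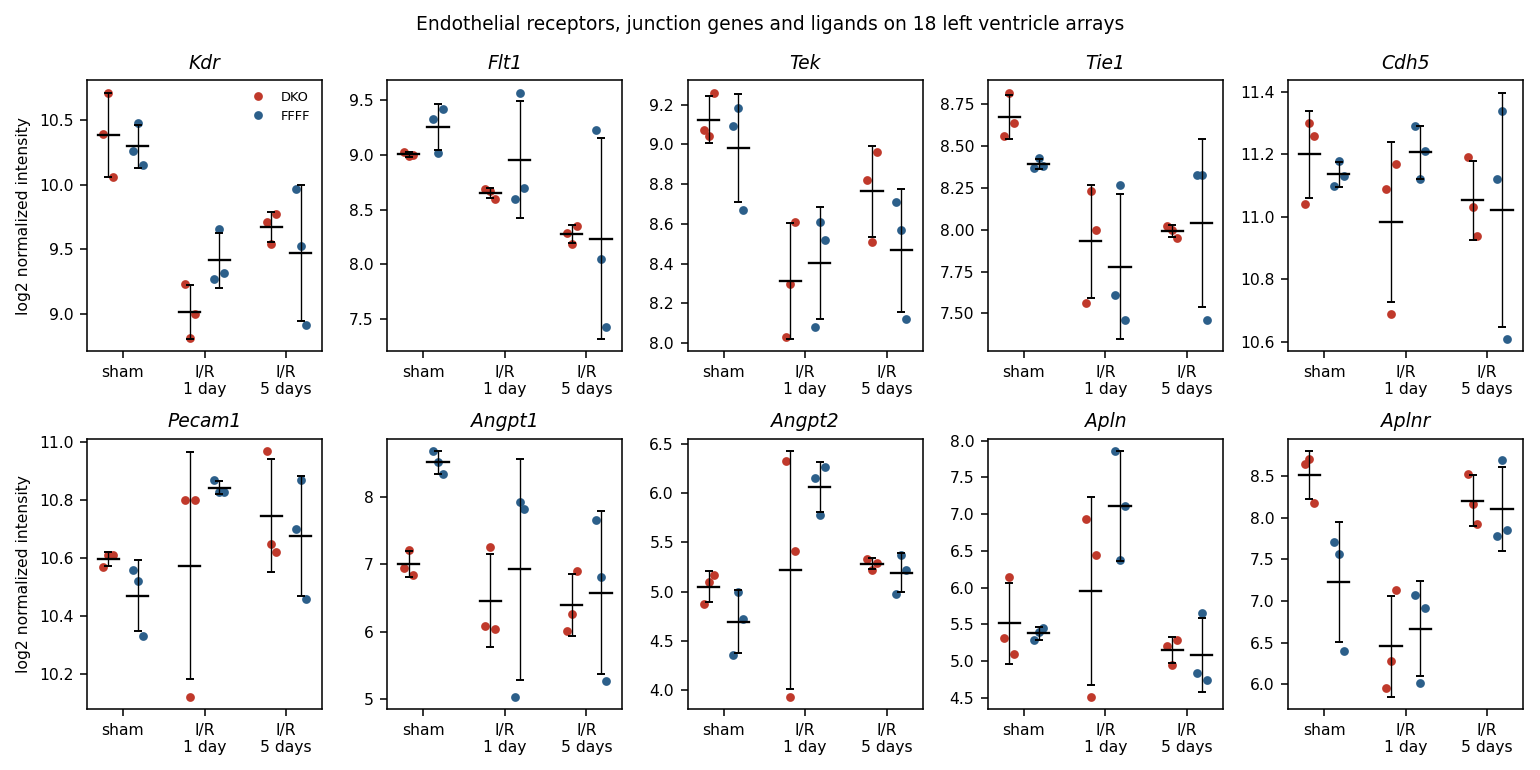
Log2 normalized intensity of each gene (y axis) on every array (points) by surgery and time (x axis), DKO in red left of FFFF in blue, with the group mean (line) and SD (bar, n = 3 arrays). Kdr and Tie1 lay lower on all 12 I/R arrays than on all 6 sham arrays, Cdh5 and Pecam1 overlapped, and Apln was highest at 1 day in FFFF ventricles.

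Averaged over both genotypes, 3 of the 4 receptor tyrosine kinases were called lower 1 day after I/R, and all 4 at 5 days. At 1 day, 1 of the 10 genes was called higher and 4 lower, at a limma adjusted p under 0.05 over all features, where 10.5% of all features were called higher and 11.7% lower. At 5 days 0 were higher and 4 lower, where 11.8% of all features were higher and 14.5% lower. The means over genotypes were added after the values were seen. They pool 6 I/R and 6 sham arrays, or 6 arrays of each day where the days are compared. Of their 11 calls at any stage, 8 held with each array left out in turn. Under every alternative fit at this threshold with all arrays, 6 held.

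Kdr, which encodes the main VEGF receptor of endothelium, showed the clearest fall. In DKO ventricles its log2 values were 9.23, 8.82 and 9.00 at 1 day and 9.71, 9.54 and 9.77 at 5 days, against 10.39, 10.71 and 10.06 after sham surgery. In FFFF ventricles they were 9.27, 9.66 and 9.32 at 1 day and 9.97, 9.53 and 8.92 at 5 days, against 10.26, 10.48 and 10.15 after sham surgery. Every I/R array lay below every sham array, with a range of 8.82 to 9.97 over 12 I/R arrays and of 10.06 to 10.71 over 6 sham arrays. Over both genotypes Kdr fell by 1.13 on the log2 scale at 1 day (2.18-fold lower, standard error 0.16, limma adjusted p = 0.00049). At 5 days it fell by 0.77 (1.70-fold lower, standard error 0.16, adjusted p = 0.0029). Both calls held under every alternative fit at this threshold and without any single array. Within DKO ventricles Kdr fell by 1.37 at 1 day (standard error 0.22, limma adjusted p = 0.0077), and the difference was -1.48 without the array labelled replicate 1 (adjusted p = 0.023). With the compared groups fitted alone this call was lost (adjusted p = 0.056). At 5 days its DKO difference of -0.71 did not pass (adjusted p = 0.074). Within FFFF ventricles the 1-day fall was 0.88 (adjusted p = 0.025) and the 5-day fall 0.82 (adjusted p = 0.022), each with a standard error of 0.22. The FFFF call at 1 day was lost on leaving out I/R replicate 1 or 3 or sham replicate 1 or 2 (adjusted p = 0.065 to 0.11). That at 5 days was lost on leaving out I/R replicate 2 or 3 or sham replicate 1 or 2 (adjusted p = 0.055 to 0.11), and with the compared groups fitted alone (adjusted p = 0.12), and the difference was -0.55 without replicate 3.

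Tek and Tie1, the TIE receptor genes, moved with Kdr at 1 day by smaller amounts. Tek had log2 values of 8.03, 8.30 and 8.61 in DKO and 8.08, 8.61 and 8.52 in FFFF ventricles at 1 day, against 9.07, 9.04 and 9.26 in DKO and 9.09, 9.18 and 8.67 in FFFF sham ventricles. Every 1-day array lay below every sham array. At 5 days Tek ranged over 8.51 to 8.96 in DKO and 8.12 to 8.71 in FFFF ventricles, which overlapped the FFFF sham arrays. Over both genotypes Tek fell by 0.70 at 1 day (1.62-fold lower, standard error 0.14, limma adjusted p = 0.0035). At 5 days it fell by 0.44 (1.36-fold lower, standard error 0.14, adjusted p = 0.032). The 1-day call held in every alternative. The 5-day call was lost with sex in the model (adjusted p = 0.10) and without FFFF sham replicate 1 or 2, FFFF 5-day replicate 3, DKO sham replicate 1 or 3 or DKO 5-day replicate 1 or 2 (up to adjusted p = 0.086). Within DKO ventricles Tek fell by 0.81 at 1 day (standard error 0.20, adjusted p = 0.034), but the call was lost without DKO I/R 1 day replicate 1 (difference -0.67, adjusted p = 0.15) or any one DKO sham array, and in the analysis of variance, with the compared groups fitted alone and with the replicate block (up to adjusted p = 0.084). In FFFF ventricles its 1-day difference of -0.58 did not pass (adjusted p = 0.075).

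Tie1 had log2 values of 7.56, 8.23 and 8.00 in DKO and 7.61, 8.27 and 7.46 in FFFF ventricles at 1 day, against 8.56, 8.82 and 8.64 in DKO and 8.37, 8.43 and 8.38 in FFFF sham ventricles. At 5 days it had 8.02, 8.00 and 7.95 in DKO and 8.33, 8.33 and 7.46 in FFFF ventricles. As for Kdr, all 12 I/R arrays lay below all 6 sham arrays, which 3.39% of all features showed. The nearest arrays were FFFF 5-day arrays at 8.33 and an FFFF sham array at 8.37. Over both genotypes Tie1 fell by 0.68 at 1 day (1.60-fold lower, standard error 0.17, limma adjusted p = 0.011), also without any single array. The 5-day fall of 0.52 (standard error 0.17, adjusted p = 0.034) was lost in the analysis of variance (adjusted p = 0.054) and without FFFF sham replicate 1, 2 or 3, FFFF 5-day replicate 3, DKO sham replicate 2 or 3 or any DKO 5-day array (up to adjusted p = 0.078). Within one genotype Tie1 passed at neither day.

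Flt1, the other VEGF receptor gene, was lower at 5 days than after sham surgery. It had log2 values of 8.29, 8.19 and 8.35 in DKO and 9.23, 8.05 and 7.43 in FFFF ventricles at 5 days, against 9.03, 8.99 and 9.00 in DKO and 9.33, 9.02 and 9.42 in FFFF sham ventricles. FFFF 5-day replicate 1 alone reached the sham range. The fall over both genotypes was 0.87 (1.83-fold lower, standard error 0.24, limma adjusted p = 0.015), and it held without any single array and in every alternative fit. At 1 day Flt1 had 8.69, 8.67 and 8.60 in DKO and 8.60, 9.57 and 8.70 in FFFF ventricles. FFFF 1-day replicate 2 alone reached the sham range, and the other 1-day arrays lay below every sham array. The 1-day difference over both genotypes, -0.32, had a 95% interval of -0.84 to 0.19 and was not called. The 5-day differences within a genotype did not pass (-0.73 in DKO, adjusted p = 0.21, and -1.02 in FFFF, adjusted p = 0.051).

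**Figure D2:**
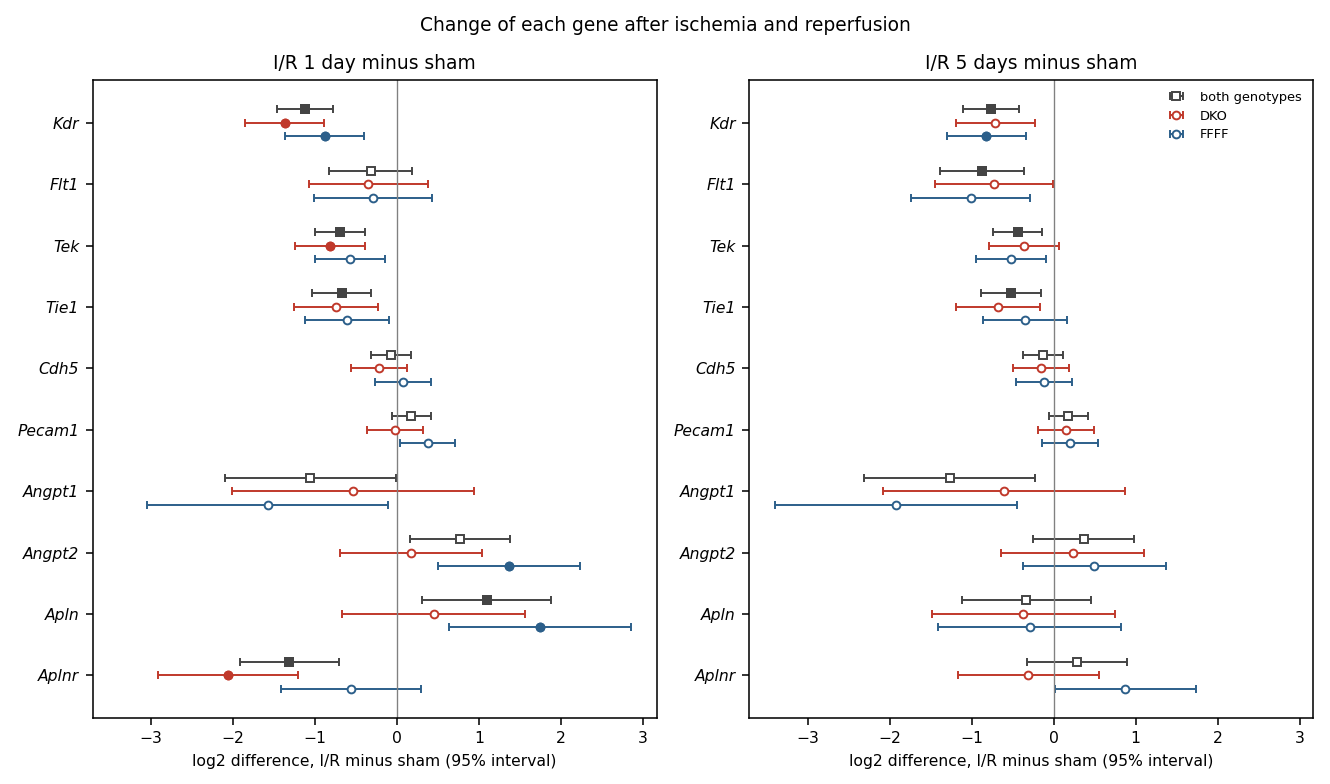
Log2 difference of I/R minus sham (x axis) with its 95% interval for each gene (y axis) at 1 day (left) and 5 days (right), for both genotypes together (grey squares), DKO (red) and FFFF (blue); filled symbols passed an adjusted p of 0.05. Over both genotypes Kdr fell by 1.13 at 1 day and 0.77 at 5 days, while the intervals of Cdh5 and Pecam1 crossed 0. Within FFFF that of Pecam1 at 1 day did not.

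The junction genes Cdh5 and Pecam1 passed at neither day. Cdh5 encodes VE-cadherin, the adhesion molecule of endothelial junctions, and Pecam1 encodes CD31, which leukocytes and platelets also carry. Cdh5 ranged over 10.61 to 11.34 on 12 I/R arrays, against 11.04 to 11.30 on 6 sham arrays. Its difference over both genotypes was -0.08 at 1 day (95% interval -0.32 to 0.16) and -0.13 at 5 days (95% interval -0.37 to 0.11). Pecam1 ranged over 10.12 to 10.97 on I/R arrays, against 10.33 to 10.61 on sham arrays, with differences of 0.17 at 1 day (95% interval -0.07 to 0.42) and 0.18 at 5 days (95% interval -0.06 to 0.42). With DKO I/R 1 day replicate 1 left out, the 1-day differences were -0.10 for Cdh5 and 0.12 for Pecam1. Within FFFF ventricles Pecam1 differed by 0.37 at 1 day (95% interval 0.03 to 0.71, limma adjusted p = 0.15), and within DKO ventricles by -0.02. The interval of Cdh5 at 1 day excludes a fall as large as that of Kdr. The arrays that stood lowest in Cdh5 and Pecam1 were the same in each of the DKO sham, DKO 1-day, DKO 5-day and FFFF 5-day groups. DKO sham replicate 1 had 11.04 for Cdh5 and 10.57 for Pecam1, and DKO I/R 5 days replicate 3 had 10.94 and 10.62. The leukocyte means of these arrays, 6.97 and 9.15, were the lowest of their groups. DKO I/R 1 day replicate 2 had 10.69 for Cdh5 and 10.12 for Pecam1, and a leukocyte mean of 7.82, the lowest of its group. FFFF I/R 5 days replicate 3, the female array, had 10.61 for Cdh5 and 10.46 for Pecam1, and a leukocyte mean of 11.17, the highest of all arrays.

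Genes of endothelial identity went both ways. Of 20 such genes, 2 rose and 4 fell over both genotypes at 1 day, with a median difference of -0.12, and 3 rose and 4 fell at 5 days, with a median of -0.09. The median over all features was 0.00 at 1 day and -0.02 at 5 days, and these shares lie near those of all features. Plvap, which encodes the diaphragm protein of fenestrated and activated endothelium, rose by 1.49 at 5 days (standard error 0.23, limma adjusted p = 0.00056). Cd34 rose by 0.55 at 5 days (adjusted p = 0.0018). Sox7, an endothelial transcription factor gene, fell by 0.75 at 1 day (adjusted p = 0.0034) and by 0.78 at 5 days (adjusted p = 0.0020). Among 7 genes of heart capillary endothelium, 2 fell and 0 rose at 1 day (median -0.77), and 3 fell and 0 rose at 5 days (median -0.56). Of all features, 11.7% fell and 10.5% rose at 1 day, and 14.5% fell and 11.8% rose at 5 days. Tcf15, a transcription factor gene of heart capillaries, fell by 1.55 at 1 day (standard error 0.28, adjusted p = 0.0018). Aqp1, the water channel gene, fell by 1.57 at 5 days (adjusted p = 0.0017), and Car4, a carbonic anhydrase gene of capillaries, by 1.88 (adjusted p = 0.0050). The list means per array lay between 7.81 and 9.42 on I/R arrays, against 9.19 to 9.52 on sham arrays, for heart capillary endothelium. For endothelial identity they lay between 7.35 and 7.92, against 7.62 to 7.93.

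**Figure D3:**
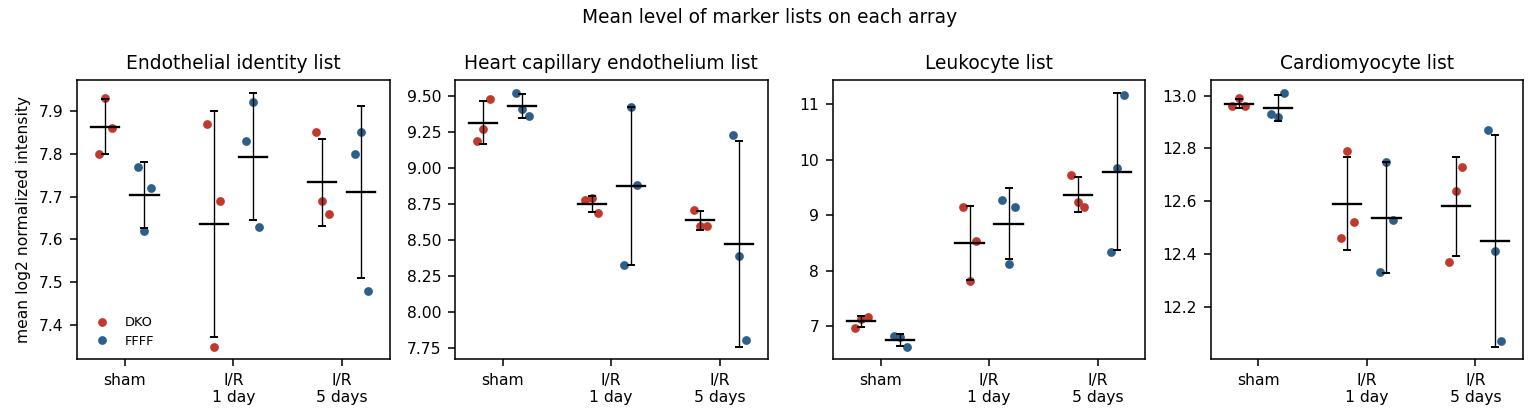
Mean log2 normalized intensity of 4 marker lists (panels, y axis) on each array (points) by surgery and time (x axis), DKO in red left of FFFF in blue, with group mean (line) and SD (bar, n = 3 arrays). The leukocyte list lay at 7.82 to 11.17 on I/R arrays and 6.63 to 7.17 on sham arrays, while the endothelial identity list overlapped between them.

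The 250 bases before the start site of the promoter table are shown for 4 of the genes, since Kdr, Tek and Tie1 fell together at 1 day and Apln moved the other way. Sequences are from RefSeq (GRCm38.p6), whose table held 5 of the 10 genes, and run 5′ to 3′ on the strand of the gene. Capitals mark the motifs searched on both strands, ACGTG or GCGTG as the core of the hypoxia response element and CAGGAAG or CCGGAAG as an ETS core; these letters do not overlap each other here. Kdr lies on the minus strand of chr5:75978456-75978705, Tek on the plus strand of chr4:94739039-94739288, Tie1 on the minus strand of chr4:118489850-118490099 and Apln on the minus strand of chrX:48034854-48035103. The windows of Tie1 and Apln end at the outer edge of the annotated gene. That of Kdr lies wholly inside the annotated gene (75932827 to 75979072), and most of that of Tek lies inside its gene, which starts at 94739086, so the annotated edge of both lies further upstream than the start site used.
Kdr: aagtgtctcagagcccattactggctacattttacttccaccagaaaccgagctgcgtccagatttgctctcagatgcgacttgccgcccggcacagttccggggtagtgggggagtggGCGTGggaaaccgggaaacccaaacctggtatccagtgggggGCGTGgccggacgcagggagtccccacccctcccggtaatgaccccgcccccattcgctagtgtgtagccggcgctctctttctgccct
Tek: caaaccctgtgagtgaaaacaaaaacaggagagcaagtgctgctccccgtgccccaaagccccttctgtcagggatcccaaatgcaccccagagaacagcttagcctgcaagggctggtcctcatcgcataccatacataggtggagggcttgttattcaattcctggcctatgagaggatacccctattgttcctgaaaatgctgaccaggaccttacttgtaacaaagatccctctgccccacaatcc
Tie1: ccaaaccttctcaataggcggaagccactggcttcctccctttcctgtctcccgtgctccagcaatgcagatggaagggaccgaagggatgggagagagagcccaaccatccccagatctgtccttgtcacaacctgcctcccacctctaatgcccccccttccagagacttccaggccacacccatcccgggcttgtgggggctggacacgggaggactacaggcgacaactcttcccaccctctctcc
Apln: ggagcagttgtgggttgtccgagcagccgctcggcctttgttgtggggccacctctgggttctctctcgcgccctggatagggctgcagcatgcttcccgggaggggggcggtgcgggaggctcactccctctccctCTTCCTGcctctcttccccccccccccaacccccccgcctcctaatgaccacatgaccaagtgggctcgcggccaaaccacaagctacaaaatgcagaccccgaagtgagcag
Kdr held 2 hypoxia cores and no ETS core of these letters, Apln held 1 ETS core and no hypoxia core, and Tek and Tie1 held neither. Flt1, also in the promoter table and not shown, held 1 hypoxia core and no ETS core. Of all 32851 promoters of this length, 38.6% held a hypoxia core and 17% an ETS core. Of 10 hypoxia response genes measured on the arrays, 1 rose and 1 fell over both genotypes at 1 day, and 0 rose and 3 fell at 5 days. Of all features, 10.5% rose and 11.7% fell at 1 day, and 11.8% rose and 14.5% fell at 5 days.

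The TIE2 ligands spread widely between arrays. Angpt2 had log2 values of 6.15, 5.78 and 6.26 in FFFF ventricles at 1 day, against 4.36, 5.00 and 4.72 in FFFF sham ventricles. In DKO ventricles it had 6.32, 3.93 and 5.41 at 1 day, against 4.87, 5.10 and 5.17 after sham surgery. The 3 FFFF arrays at 1 day thus stood apart from sham, whereas DKO I/R 1 day replicate 2 lay below all other arrays of the series. Angpt2 rose by 1.37 in FFFF ventricles at 1 day (2.58-fold, standard error 0.40, limma adjusted p = 0.044), one of the 2 genes called higher beside 1 called lower in this comparison, where 5.93% of all features were called higher and 5.79% lower. The call was lost on leaving out I/R replicate 1 or 3 or a single sham array (adjusted p = 0.079 to 0.14), and in the analysis of variance, with the replicate block and with sex in the model (up to adjusted p = 0.073). Over both genotypes the difference was 0.77 (adjusted p = 0.071). It was 0.49 without the 1-day array labelled DKO replicate 1 (adjusted p = 0.14), and 1.09 without DKO replicate 2 (adjusted p = 0.00030). Within DKO ventricles the difference was 0.17, and -0.38 with replicate 1 left out. At 5 days Angpt2 had 5.33, 5.22 and 5.29 in DKO and 4.98, 5.37 and 5.22 in FFFF ventricles, and no comparison with sham passed. The gene is dim, above the 40th percentile of an array on 16 of 18 arrays.

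Angpt1 had log2 values of 5.03, 7.92 and 7.82 in FFFF ventricles at 1 day and 7.65, 6.81 and 5.27 at 5 days, against 8.67, 8.52 and 8.33 in FFFF sham ventricles. The FFFF sham arrays lay above all other arrays of the series. In DKO ventricles it had 6.08, 7.26 and 6.04 at 1 day and 6.01, 6.26 and 6.90 at 5 days, against 6.94, 7.21 and 6.84 after sham surgery. The DKO 1-day and 5-day arrays overlapped DKO sham arrays. With a standard error of 0.69 within a genotype, the difference of -1.58 in FFFF ventricles at 1 day and of -1.93 at 5 days did not pass (limma adjusted p = 0.16 and 0.068). Over both genotypes the 5-day difference of -1.27 did not pass either (adjusted p = 0.071), and passed with the compared groups fitted alone (adjusted p = 0.019). The 5-day fall of Kdr was the 1 call in FFFF ventricles at that day, where 8.26% of all features were called higher and 10.02% lower.

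Among 5 other genes of angiopoietin and TIE signalling, 1 rose and 2 fell over both genotypes at 1 day and at 5 days. Foxo1, a transcription factor gene held in check by TIE2 signalling, fell by 0.52 at 1 day (standard error 0.10, limma adjusted p = 0.0028), while its 5-day fall was 0.34 (adjusted p = 0.021). Ptprb, which encodes the endothelial phosphatase VE-PTP that acts on TIE2, fell by 0.51 at 1 day (adjusted p = 0.011) and by 0.48 at 5 days (adjusted p = 0.013). Dok2, an adaptor gene that leukocytes also express, rose by 0.93 at 1 day (adjusted p = 0.0031). Svep1, a matrix protein gene, rose by 1.93 at 5 days (adjusted p = 0.0020). Of 8 VEGF ligand and co-receptor genes, 1 rose and 1 fell at 1 day and 2 rose and 2 fell at 5 days. Of all features, 10.5% rose and 11.7% fell at 1 day, and 11.8% rose and 14.5% fell at 5 days. Pgf, which encodes the Flt1 ligand placental growth factor, rose by 1.23 at 1 day (adjusted p = 0.026, standard error 0.36), and it differed by -0.02 at 5 days. Vegfb, the other ligand gene specific to Flt1, fell by 0.79 at 1 day (adjusted p = 0.018) and by 0.97 at 5 days (adjusted p = 0.0045). Vegfa, whose product binds both receptors, fell by 0.90 at 5 days (standard error 0.23, adjusted p = 0.0099). Vegfd rose by 2.41 at 5 days (standard error 0.35, adjusted p = 0.00035), a stage at which the fibroblast list also rose, with 10 of 10 genes called higher. The cardiomyocyte list fell, with 7 of 13 genes called lower at 1 day and 8 at 5 days. The part of these lists in the changes of single genes was not tested.

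Over both genotypes, the apelin pair moved in opposite directions at 1 day, and each moved the other way between 1 and 5 days. Both calls between the days were lost with sex in the model. In neither genotype alone did both genes pass at 1 day. Apln, the ligand gene, had log2 values of 7.86, 6.37 and 7.11 in FFFF ventricles at 1 day, against 5.28, 5.40 and 5.45 in FFFF sham ventricles. In DKO ventricles it had 6.93, 4.51 and 6.44 at 1 day, against 5.32, 6.14 and 5.09 after sham surgery. The FFFF groups did not overlap, and in DKO ventricles replicate 2 at 1 day lay below every sham array. Apln rose by 1.74 in FFFF ventricles (3.34-fold, standard error 0.52, limma adjusted p = 0.045), a call lost on leaving out I/R replicate 1 or 3 or a single FFFF sham array (adjusted p = 0.096 to 0.20), and under the same 3 alternatives as that of Angpt2 (up to adjusted p = 0.075). In DKO ventricles the difference of 0.45 did not pass (adjusted p = 0.68), and it was -0.04 with replicate 1 left out. Over both genotypes Apln rose by 1.09 (standard error 0.37, adjusted p = 0.046). That call was lost with sex in the model (adjusted p = 0.056), with the compared groups fitted alone (adjusted p = 0.084), in the analysis of variance, with the replicate block, and on leaving out any of 9 arrays, among them the 1-day array labelled DKO replicate 1 (difference 0.85, adjusted p = 0.12). The arrays without which it held were FFFF I/R 1 day replicate 2, DKO sham replicate 2 and DKO I/R 1 day replicate 2.

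At 5 days Apln had 5.20, 4.95 and 5.29 in DKO and 4.84, 5.66 and 4.74 in FFFF ventricles. All 3 FFFF arrays at 5 days lay below all 3 FFFF arrays at 1 day. From 1 to 5 days Apln fell by 2.03 in FFFF ventricles (4.10-fold lower, standard error 0.52, limma adjusted p = 0.033) and by 1.43 over both genotypes (standard error 0.37, adjusted p = 0.018). In DKO ventricles the difference of -0.82 did not pass (adjusted p = 0.44), and it was -0.33 without the 1-day array labelled replicate 1. The call over both genotypes held without any single array, and was lost with sex in the model (adjusted p = 0.11) or with the compared groups fitted alone (adjusted p = 0.062). The FFFF call was lost without I/R 1 day replicate 1 or 3 or any one 5-day array (adjusted p = 0.053 to 0.14), and in the analysis of variance, with the compared groups fitted alone and with sex in the model (up to adjusted p = 0.10). In FFFF ventricles, 1 gene was called higher and 1 lower between these days, where 3.05% of all features were higher and 3.20% lower. Over both genotypes 1 was called higher and 1 lower, where 7.07% of all features were higher and 7.32% lower.

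Aplnr, the receptor gene, fell at 1 day and rose again. In DKO ventricles its log2 values were 5.95, 6.28 and 7.13 at 1 day and 8.53, 8.16 and 7.93 at 5 days, against 8.65, 8.71 and 8.18 after sham surgery. In FFFF ventricles they were 7.07, 6.01 and 6.91 at 1 day and 7.78, 8.69 and 7.85 at 5 days, against 7.71, 7.57 and 6.40 after sham surgery. All 6 arrays at 5 days lay above all 6 arrays at 1 day, while FFFF sham replicate 3 lay among the 1-day arrays. Over both genotypes Aplnr fell by 1.32 at 1 day relative to sham (2.49-fold lower, standard error 0.28, limma adjusted p = 0.0048), a call that held in every alternative fit and without any single array. It was 1.60 higher at 5 days than at 1 day (3.03-fold, standard error 0.28, adjusted p = 0.0019), also without any single array, and the call was lost with sex in the model (adjusted p = 0.065). In DKO ventricles it fell by 2.07 at 1 day (4.18-fold lower, standard error 0.40, adjusted p = 0.015), and the difference was -1.81 without the array labelled replicate 1 (adjusted p = 0.077). Leaving out DKO sham replicate 1 or 2 also ended that call, at adjusted p values from 0.061, as did fitting the compared groups alone (adjusted p = 0.063). In FFFF ventricles its difference from sham was -0.57 at 1 day (adjusted p = 0.43) and 0.88 at 5 days (adjusted p = 0.16), and neither passed. In DKO ventricles, with Kdr and Tek, it made 0 genes called higher and 3 lower at 1 day, where 2.58% of all features were higher and 2.54% lower.

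In DKO ventricles Aplnr was 1.76 higher at 5 days than at 1 day (standard error 0.40, limma adjusted p = 0.025). It was the 1 gene called higher, with 0 lower, where 2.45% of all features were higher and 2.14% lower. The difference was 1.50 (adjusted p = 0.12) once the 1-day array labelled DKO replicate 1 was left out, and without DKO 5-day replicate 1 or 2 the call was lost too (adjusted p from 0.075), as in the analysis of variance, with the compared groups fitted alone and with sex in the model (up to adjusted p = 0.14). In FFFF ventricles Aplnr was 1.44 higher at 5 days than at 1 day (standard error 0.40, adjusted p = 0.047), lost without any one 1-day array or 5-day replicate 2 or 3 (adjusted p = 0.070 to 0.19), and under these same alternatives and the replicate block (up to adjusted p = 0.22). Between DKO ventricles at 5 days and after sham surgery, 0 of the 10 genes were called, where 3.23% of all features were higher and 2.84% lower. At an unadjusted p under 0.05 there were 3, where 2473 of all 24479 features were higher and 3152 lower. Of 3 other apelin pathway genes, 1 fell over both genotypes at 1 day: Mme, which encodes neprilysin, a peptidase that cleaves apelin, by 0.98 (standard error 0.30, adjusted p = 0.029). In that comparison 11.7% of all features fell.

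**Figure D4:**
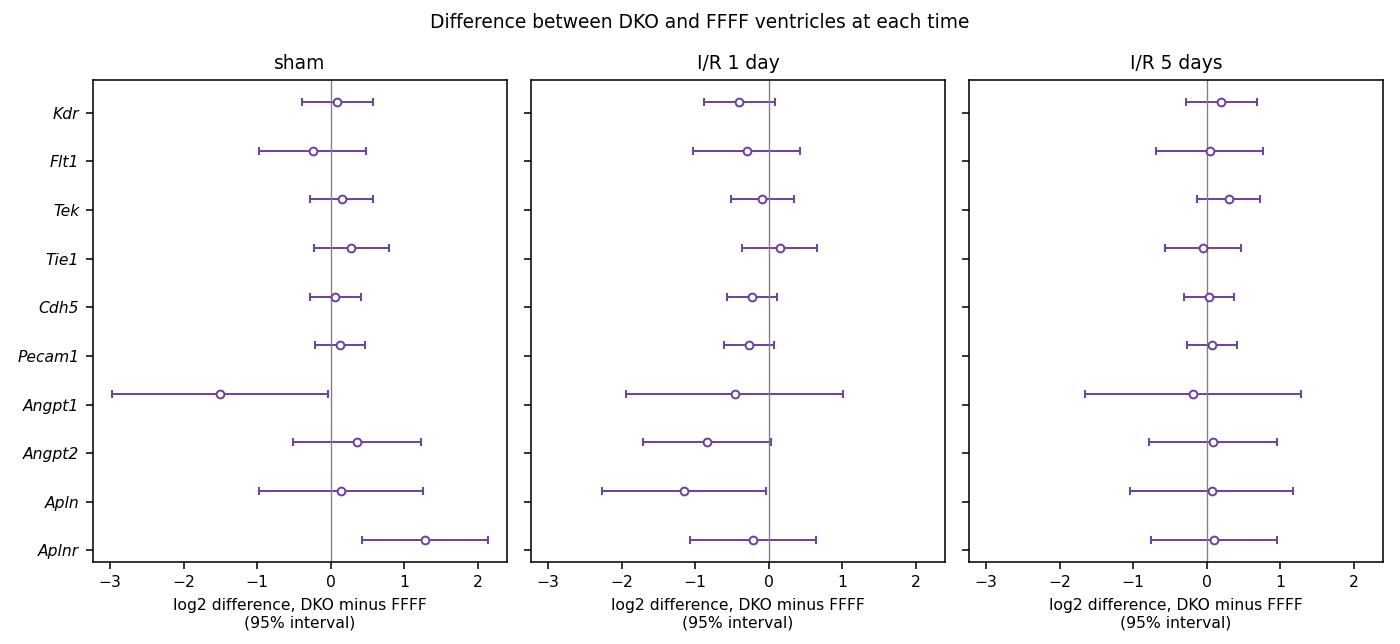
Log2 difference of DKO minus FFFF (x axis) with its 95% interval for each gene (y axis) in sham, 1-day and 5-day ventricles (panels). No gene passed an adjusted p of 0.05; Aplnr in sham ventricles differed by 1.29.

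Between DKO and FFFF ventricles, 0 of the 10 genes were called in limma after sham surgery, at 1 day or at 5 days, where 0.00817%, 0% and 0% of all features were called. At an unadjusted p under 0.05 there were 2 after sham surgery, 1 at 1 day and 0 at 5 days. Of all 24479 features, 680 were higher and 779 lower at this level after sham surgery. At 1 day 936 were higher and 703 lower, and at 5 days 305 were higher and 285 lower. With DKO I/R 1 day replicate 1 left out, 15 of all features and 0 of the 10 genes were called at 1 day. In sham ventricles Aplnr was 8.51 ± 0.29 in DKO and 7.23 ± 0.72 in FFFF (SD, n = 3 arrays), a difference of 1.29 (95% interval 0.43 to 2.14, limma adjusted p = 0.66). Angpt1 was 7.00 ± 0.19 in DKO and 8.51 ± 0.17 in FFFF sham ventricles, a difference of -1.51 (95% interval -2.98 to -0.03, adjusted p = 0.82). Its arrays in sham ventricles were close within each genotype, and with these 6 arrays fitted alone the adjusted p was 0.027. In all, 4 of the 10 genes had no overlap between DKO and FFFF sham arrays, Tie1, Pecam1 and Aplnr higher and Angpt1 lower in DKO, where 15.5% of all features had none. At 1 day Apln was 5.96 ± 1.28 in DKO and 7.11 ± 0.74 in FFFF ventricles (adjusted p = 0.74), with overlapping arrays, and the difference of -1.15 became -1.64 with replicate 1 of DKO left out (adjusted p = 0.35). Between same-numbered arrays Apln was lower in DKO in 3 of 3 pairs, with differences of -0.93, -1.86 and -0.66, and its adjusted p with the replicate block was 0.75. Of the 10 genes, 4 were lower in DKO in every pair (Kdr, Cdh5, Pecam1 and Apln) and 0 were higher in every pair. The share of all features with this pattern was not counted. The smallest of these differences were -0.04 for Kdr, -0.04 for Cdh5 and -0.03 for Pecam1. The pair of replicate 1 holds the DKO array that goes against its label. The pairing is an assumption that rests on the values alone, and these do not establish it. At 5 days the group means of the 10 genes differed by -0.19 to 0.30.

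Whether the response to I/R differed between the genotypes was tested as the difference of the I/R effects, DKO minus FFFF. At 1 day 0 of the 10 genes were called, where 0.00409% of all features were. At an unadjusted p under 0.05, where 679 of all 24479 features were higher and 446 lower, there was 1 gene of the 10. That gene was Aplnr, whose change at 1 day was -2.07 in DKO and -0.57 in FFFF ventricles, a difference of -1.50 (95% interval -2.71 to -0.29, limma adjusted p = 1.00), and of -1.25 once the 1-day array labelled DKO replicate 1 was left out. Without that array 5 of all features and 0 of the 10 genes were called. At 5 days 0 were called, where 0% of all features were. At an unadjusted p under 0.05 there were 0, where 531 features were higher and 448 lower. For Kdr the difference of the responses was -0.49 at 1 day (95% interval -1.17 to 0.19), or -0.60 without the same array, and 0.11 at 5 days (95% interval -0.57 to 0.79), so differences of these sizes were not detectable with 3 arrays a group. For Angpt1 the interval at 1 day was -1.04 to 3.13, and without the same array the difference was 1.23 with a standard error of 1.06.

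How the genes varied together over the 18 arrays is given as Pearson's r, with no test, since the arrays share the groups, the quantile normalization and the cell makeup. After removing group means, r was 0.82 for Cdh5 with Pecam1, 0.81 for Angpt2 with Apln and 0.72 for Kdr with Flt1. It was 0.71 for Pecam1 with Apln, 0.70 for Pecam1 with Angpt2 and 0.68 for Flt1 with Tie1. Kdr with Cdh5 had 0.49. DKO I/R 1 day replicate 2 was the lowest array of the series in both Angpt2 and Apln. Over all arrays, the 5 features most like Kdr were Peg13 (r = 0.93), Tspan15, Egflam, Fam131a and Arap2. Those most like Apln were Cstf2 (r = 0.94), Rrp1b, Rrp15, 3110082I17Rik and Gspt1, and those most like Angpt2 were Usp7 (r = 0.92), Ctdp1, Gm7964, F630028O10Rik and Rbm34. Aplnr was most like Arhgap18 (r = 0.88), Kctd12b, H1f0, Pcdh17 and Tspan18.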

How the data were processed

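RNA of the left ventricle was hybridized to Affymetrix mouse gene arrays. The deposited values are on the log2 scale: the authors made them with RMA and quantile normalization, with a custom chip definition that gives 1 feature per Entrez gene, and pooled no arrays. All columns share one distribution, so differences are relative to the whole array, and no further transformation was made. The number of arrays limits the precision.

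Groups follow the labels. One linear model of the 6 groups was fitted to all 24479 features in R 4.3.3 with limma 3.58.1, with variances moderated by eBayes and Benjamini-Hochberg adjustment across all features, and a gene was called at an adjusted p under 0.05. The method was tested on simulated data. Intervals cover 95%. All 10 members and, from each gene list, up to 3 called genes with the smallest p per comparison were named. The members and lists were chosen with earlier results of these data known, and the means over both genotypes were added after the values were seen. Alternatives were a variance trend, also robust, array weights, gene-wise analysis of variance, a threshold of 0.01, the compared groups alone, a filter on dim features (40th percentile in 3 arrays), repeated quantile normalization, centring on array medians, replicate number as a block, sex as a covariate, and each array left out in turn.

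Deviations from the group means of same-numbered DKO and FFFF arrays correlated by 0.36 to 0.53 at 1 day, and those of differently numbered ones by at most 0.22. The numbers were therefore taken to pair them at that day, from the values alone. Arrays of different days and numbers reached 0.57 (FFFF I/R 1 day replicate 2 with FFFF I/R 5 days replicate 1). Correlations of this size thus do not establish a pairing. No other groups were paired.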

Additional observations from a re-analysis of the deposited data

How the results depend on the processing

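Of 45 member differences with an unadjusted p under 0.05, the 868 values under alternatives kept direction and side of the threshold in 722, lost the call in 109, gained it in 37 and reversed in 0. Of 95 other differences, 45 changed sign under at least 1 alternative and 8 were called under at least 1. Of the 10 calls within one genotype, 1 held without any single array, and 1 held under every alternative fit at the threshold of 0.05 with all arrays. Further quantile normalization and median centring moved no count of calls by over 1.5 times.

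Counts of the 10 genes called moved as follows. For FFFF ventricles at 1 day against sham (3 in the model as described), there were 5 with array weights, 1 with analysis of variance, 1 with the replicate block, 1 with sex and 0 at the threshold of 0.01. The counts over all features were 2870 as described and, in the same order, 4942, 1887, 2746, 2714 and 599. For FFFF at 5 days against sham (1), there were 3 with a trend, 2 with a robust trend, 5 with array weights, 0 at 0.01, 0 with the groups alone, 3 without dim features and 2 with sex. Over all features they were 4475 and, in the same order, 4342, 4312, 8066, 1759, 1027, 4830 (of 16091 kept) and 3574. For FFFF at 5 days against 1 day (2), there were 0 with analysis of variance, 0 at 0.01, 0 with the groups alone, 1 with the replicate block and 0 with sex. Over all features they were 1531 and, in the same order, 1029, 382, 261, 1486 and 881. For DKO at 1 day against sham (3), there was 1 at 0.01 and 0 with the groups alone, where the counts over all features were 1252, 142 and 112. For DKO at 5 days against sham (0), there were 3 with array weights, 3 with the groups alone and 1 without dim features. Over all features they were 1487 and, in the same order, 4528, 3825 and 2100 (of 16091 kept). For DKO at 5 days against 1 day (1), there were 0 with analysis of variance, at 0.01, with the groups alone and with sex. Over all features they were 1124 and, in the same order, 691, 178, 58 and 479. For DKO against FFFF after sham surgery (0), there was 1 with the groups alone, Angpt1, where the counts over all features were 2 and 34. Over both genotypes, there were 3 at 0.01 for 1 day against sham (5), 1 at 0.01 for 5 days against sham (4), and 1 at 0.01, 1 with the groups alone and 0 with sex for 5 days against 1 day (2). The counts over all features went from 5432 to 2851 and from 6449 to 3840 against sham. Between the days they went from 3524 to 1782, 2339 and 1733. The stricter threshold lowers counts by construction. All sham and 1-day arrays were female, so sex in the model can alter only the estimated spread of 1-day differences from sham. The cause of the other changes was not tested.

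With each array left out in turn, the counts ranged from 0 to 4 for FFFF at 1 day against sham, 0 to 4 for FFFF at 5 days, 0 to 2 for FFFF at 5 days against 1 day, 1 to 5 for DKO at 1 day, 0 to 0 for DKO at 5 days, and 0 to 2 for DKO at 5 days against 1 day. Over both genotypes they ranged from 4 to 7 at 1 day, 2 to 5 at 5 days and 2 to 3 between the days. Between the genotypes and for the difference of responses they stayed at 0. With 1 DKO array at 1 day left out, the count in that group was 1 without replicate 1 and 5 without replicate 2. The counts over all features against DKO sham were then 206 and 3349.

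The replicate number as a block ended the calls of Angpt2 (adjusted p = 0.056) and Apln (0.057) in FFFF ventricles at 1 day, of Aplnr between the FFFF days (0.068), of Tek in DKO ventricles at 1 day (0.051) and of Apln over both genotypes at 1 day. Between DKO and FFFF at 1 day, where the numbers were taken to pair the arrays, 0 genes were called with the block, with all groups or with these groups alone, the last chosen after seeing the data.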
